A study of Danio rerio with 2 samples.

Results

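The genes described are those of the coats and carriers that move newly made proteins from the endoplasmic reticulum (ER) to the Golgi. They were chosen by symbol, as every row of the deposited expression table named for a Sec, Sar1, coatomer, Tmed, TRAPP, Ssr or Arf protein, and rows with several joined symbols were left out. The rule took 62 of the 14428 rows. Of these, 57 reached at least 1 FPKM (mapped fragments per unit of gene length, relative to all those of the library) in either library. The other 5 rows, arf3a, arf3b, arf4b, sar1ab and trappc6b, were listed at 0 in both libraries and were not compared.

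The starting material was embryos of the zebrafish (Danio rerio) reporter line crestin_1kb:EGFP, at the stage labelled 15 SS. In this line a fragment of crestin, a neural crest marker gene, drives expression of the fluorescent protein EGFP. Dissociated embryos were separated by fluorescence-activated cell sorting into about 5500 cells with EGFP (EGFP+), labelled as neural crest, and about 100000 cells without it (EGFP-), and both fractions carry the same transgene. One library was made from each fraction, so no value has a replicate error, no difference was tested, and every difference is described by its size alone. A sorted fraction is a mixture, and more cells of a type cannot be told apart from more RNA per cell.

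Secretory proteins enter the ER through the Sec61 channel, leave it in vesicles built by the COPII coat, and are sorted in the Golgi, from which the COPI coat returns material to the ER. Neural crest cells migrate, carry many surface receptors and later give rise to cartilage and other matrix-secreting cells. In zebrafish, mutations of sec23a and sec24d disturb the craniofacial cartilage, and mutations of the coatomer genes copa, copb1 and copb2 disturb the notochord.

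All 7 measured COPII genes, 6 of 7 COPI genes and 4 of 6 translocon genes lay less than 2-fold apart in the fractions. The exceptions were copz2 and sec62, which were higher in the EGFP+ library, and sec61g, a channel subunit, which was lower. Copz2 was low in the EGFP+ library and listed at 0 in the EGFP- one, where an exact 0 can be a lost estimate. Outside the symbol rule, the COPI gene arcn1a was also higher, and its paralogue arcn1b was not. Further families also held genes at least 2-fold apart, among them 1 higher and 2 lower of 3 Sec22 genes and 5 higher and 1 lower of 10 TRAPP genes. Together 17 of the 20 COPII, COPI and translocon genes (85%) lay less than 2-fold apart, against 50.6% of all genes at 1 FPKM or more in either library. That share of all genes rose with level, to 68.7% at a geometric mean of 20 to under 100 FPKM and 79.9% at 100 to under 1000 FPKM. A gene was called higher or lower when the libraries were at least 2-fold apart on the log2(FPKM + 1) scale, where the pseudocount of 1 FPKM shrinks the differences of low genes. On that scale 12 of the 57 genes were higher in the EGFP+ library, 8 were lower and 37 lay less than 2-fold apart. The members' share of higher genes, 21.1%, was near the 22.9% of all 9685 genes at 1 FPKM or more, and their share of lower genes, 14.0%, was below the 26.5% of all genes. That second gap was smaller among genes above 0 in both libraries, where 12.96% of 54 members and 16.5% of 7449 genes were lower and 18.5% and 17.8% were higher. Their median log2 ratio was 0.03, against -0.04 for all genes. Their levels summed to 4998 FPKM in the EGFP+ and 5572 FPKM in the EGFP- library, which was 0.458% and 0.623% of everything in the table. The direction of that gap rested on sec61g, since without it the sums were 4461 and 4262 FPKM. The small nuclear RNA rn7sk alone took 13.9% and 6.85% of everything in the table. With the libraries scaled to equal sums without rn7sk, 10 members were higher and 10 lower, 17.5% each, against 20.5% and 29.1% of all genes, and the medians were -0.14 for the members and -0.20 for all genes.

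The level of a gene bears on these shares, since abundant genes were less scattered throughout the table. At a geometric mean of 20 to under 100 FPKM, 80.8% of 26 members and 68.7% of all 2880 genes lay less than 2-fold apart. At 100 to under 1000 FPKM the shares were 76.9% of 13 members and 79.9% of 1088 genes, and under 20 FPKM they were 33.3% of 18 members and 34.7% of 5603 genes. With the minimum raised to 20 FPKM in either library, 7 of 43 members (16.3%) were higher and 4 (9.30%) were lower, against 20.2% and 21.3% of 5448 genes. Levels of the 57 members in the libraries were correlated across genes on the log2 scale (Spearman's rho = 0.83, Pearson's r = 0.81), a description in which every point shares the same pair of libraries. Over genes above 0 in both libraries, r was 0.83 for 54 members and 0.84 for all 7449 genes.

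**Figure D1:**
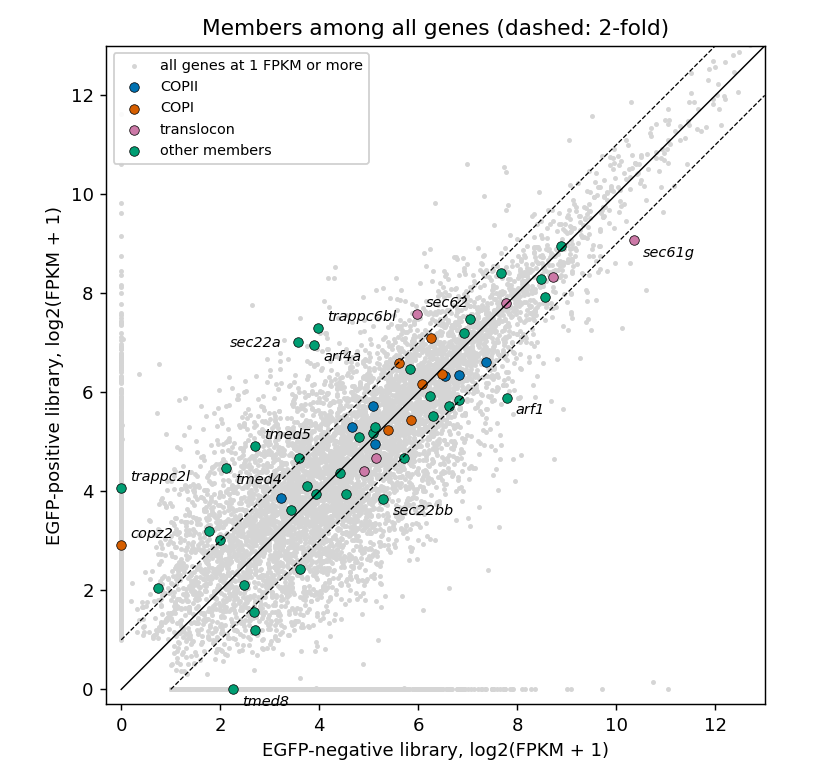
Level of each gene in the EGFP+ library (vertical, log2(FPKM + 1)) against the EGFP- library (horizontal, same scale), with all genes in grey, the members in colour by class and dashed lines at 2-fold; 13 genes above 13 on either axis lie outside the frame. Most COPII, COPI and translocon genes lie between the dashed lines, while sec22a, trappc6bl and arf4a lie above them and arf1 and sec61g below.

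The translocon, where nascent chains cross the ER membrane, had an even channel subunit and 2 members that differed in opposite directions. Sec61a1, the pore-forming alpha subunit, was at 319.6 FPKM in the EGFP+ and 419 FPKM in the EGFP- library. Its relative sec61al2, named sec61a1b in current annotation, was at 20.2 against 29.1 FPKM. The alpha genes kept nearly the same proportion, since sec61a1 made up 94.1% of their sum in the EGFP+ and 93.5% in the EGFP- library. Reads shared between these close relatives could be split by the authors' counting, so each value is uncertain.

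Sec61g encodes the small gamma subunit that clamps the channel, and was the most abundant gene of the whole set. It stood at 537 FPKM in the EGFP+ and 1309.7 FPKM in the EGFP- library, a 2.44-fold lower level in the former. Sec61b, the beta subunit, was at 222 against 217 FPKM. The 3 channel subunits therefore stood in different proportions, with sec61g at 2.42 times sec61b in the EGFP+ library and 6.05 times in the EGFP- one.

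Sec62 and sec63 encode membrane proteins that help chains enter the channel after translation. Sec62 stood at 189.7 FPKM in the EGFP+ and 61.9 FPKM in the EGFP- library, a 3.06-fold ratio, while sec63 was at 24.6 against 34.4 FPKM. The ratio of sec62 to sec63 was 7.72 in the EGFP+ and 1.80 in the EGFP- library. Over the 6 translocon genes the median log2 ratio was -0.43. Their summed level was 1313 against 2071 FPKM, and without sec61g it was 776 against 761 FPKM, so that gene held the gap in the sum. The median log2 ratio of the other 5 genes was still -0.39.

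The translocon-associated protein (TRAP) complex, which assists the entry of some chains, divided evenly. Ssr1 was at 339 against 203 FPKM and ssr2 at 87.8 against 56.2 FPKM, both above their EGFP- levels by less than 2-fold. Ssr3 was at 241 against 375 FPKM, and ssr4 was lower at 24.5 against 51.4 FPKM, a 2.09-fold difference that sat just past the threshold. Ssr1 was thus the most abundant TRAP gene in the EGFP+ library and ssr3 in the EGFP- one. The summed level of the 4 genes was 693 against 686 FPKM. Sec11a, a catalytic subunit of the signal peptidase that trims the entering chain, was at 59.8 against 74.4 FPKM.

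None of the 7 measured COPII genes was 2-fold apart. Sar1b, the GTPase that starts coat assembly on the ER, was at 81.1 FPKM in the EGFP+ and 113 FPKM in the EGFP- library. The outer cage genes were also at or below their EGFP- levels, with sec13 at 96.9 against 165 FPKM and sec31a at 29.9 against 33.9 FPKM. Sec13 also serves in the nuclear pore, and was the most abundant COPII gene in both libraries.

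In the inner coat, which binds cargo, sec23a stood at 79.5 FPKM in the EGFP+ and 92.3 FPKM in the EGFP- library. Its paralogue sec23b was at 38.7 against 24.5 FPKM, so that sec23a was 2.05 times sec23b in the EGFP+ library and 3.77 times in the other. The summed level of the pair was nearly equal, at 118 against 117 FPKM. The cargo adaptors sec24c (52.1 against 33.2 FPKM) and sec24d (13.5 against 8.33 FPKM) were both above their EGFP- levels, by 1.57-fold and 1.62-fold. Their proportion to each other was 3.85 in the EGFP+ and 3.98 in the EGFP- library.

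Sar1b, sec13, sec31a and sec23a were thus at lower levels and sec23b, sec24c and sec24d at higher levels in the EGFP+ library, all by less than the 2-fold that was called. The median log2 ratio of the 7 genes was -0.18, with a range from -0.76 to 0.64. Sec23ip, a partner of Sec23 at ER exit sites, was at 14.5 against 22.3 FPKM.

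Of the 7 COPI coatomer genes, 6 lay less than 2-fold apart. Copb2, the beta-prime subunit, was at 81.8 FPKM in the EGFP+ and 88.2 FPKM in the EGFP- library, copg2 at 36.9 against 40.9 FPKM, and copz1 at 71.4 against 66.9 FPKM. Copa, the alpha subunit, was at 42.3 against 56.8 FPKM. These 4 genes differed by at most 1.34-fold.

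Copb1 and cope, the beta and epsilon subunits, stood above their EGFP- levels. Copb1 was at 136.9 against 75.4 FPKM, a 1.82-fold ratio, and cope at 95.1 against 47.9 FPKM, a 1.99-fold ratio that fell just short of 2-fold on the log2(FPKM + 1) scale. Subunits of the coatomer join in fixed proportions as proteins. Yet the RNA levels of the 6 genes other than copz2 covered a 3.71-fold range in the EGFP+ library, from copg2 to copb1. In the EGFP- library the same 6 genes covered a 2.16-fold range, from copg2 to copb2.

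Copz2, a second zeta subunit, was the only COPI gene called higher, at 6.54 FPKM in the EGFP+ library and listed at 0 in the EGFP- one. An exact 0 in this table can be a lost estimate, so no fold is given for it. Copz1 remained the larger zeta gene, at 91.6% of the zeta sum in the EGFP+ library. The delta subunit is encoded by the archain genes, which the symbol rule does not take. Arcn1a was 2.46-fold higher, at 64.9 against 26.3 FPKM, while arcn1b, named after its value was seen, was at 40.1 against 41.8 FPKM. The COPI median log2 ratio was 0.09 over 7 genes and -0.01 without copz2.

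**Figure D2:**
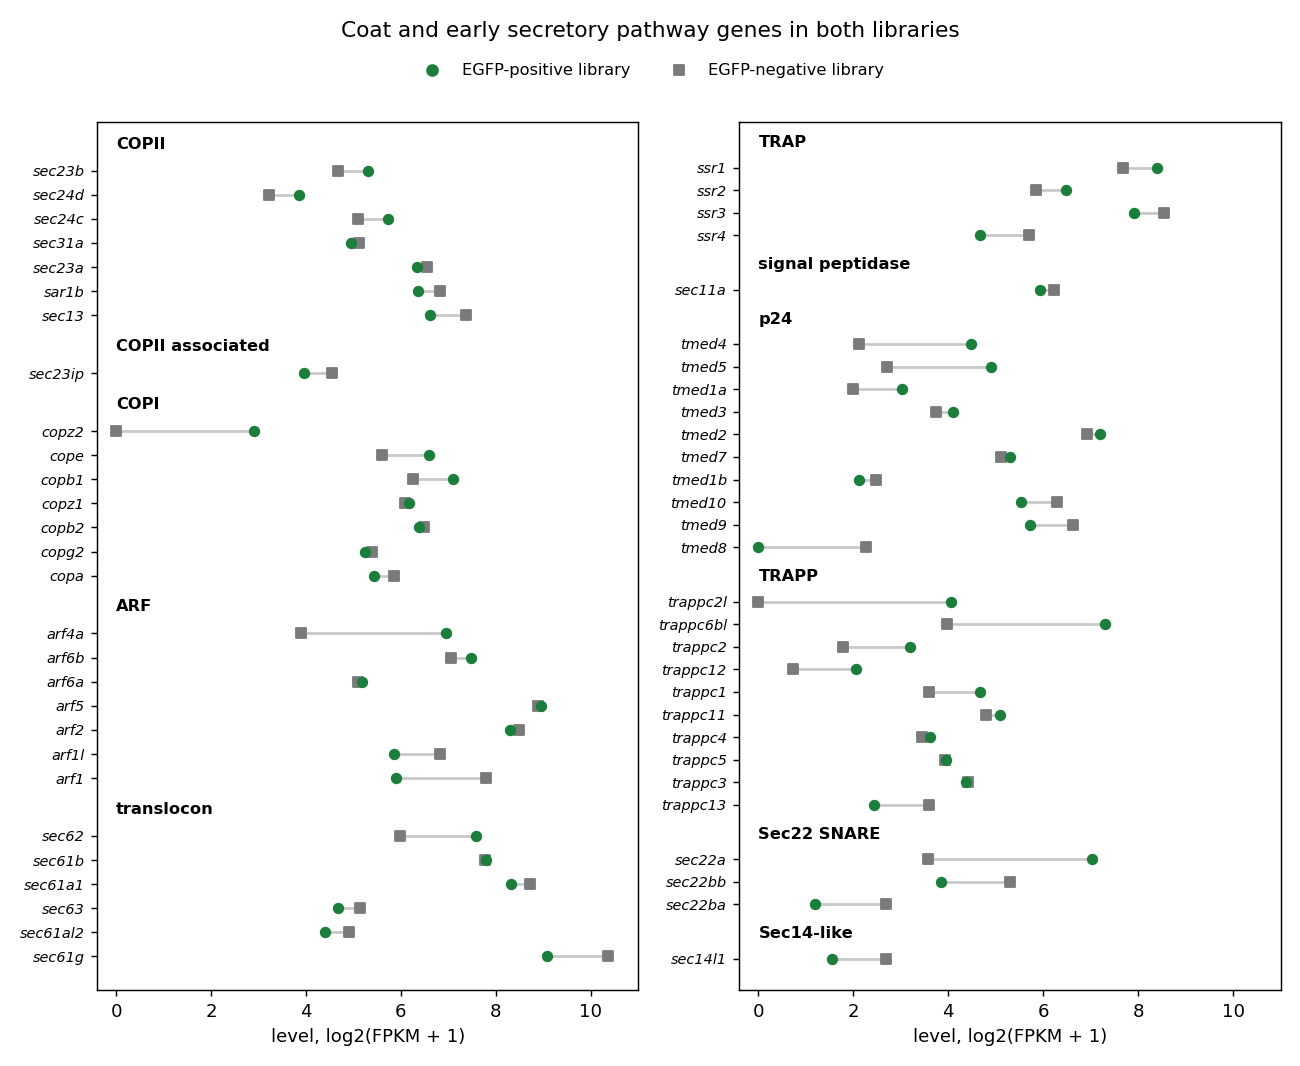
Level of the 57 measured members in log2(FPKM + 1) (horizontal), grouped by class, with the EGFP+ library as green circles, the EGFP- library as grey squares and a line joining each pair; a marker at 0 is a gene listed at 0. Pairs are short in COPII and in most of COPI, and long for some genes of the ARF, p24 and TRAPP classes and for all 3 Sec22 genes.

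ARF GTPases recruit COPI and other coats to membranes. Arf5 and arf2 (arf2a in current annotation) were the most abundant and nearly level, at 496 against 469.9 FPKM and 313 against 358 FPKM. Arf6a (35.1 against 33.0 FPKM) and arf6b (177.5 against 131 FPKM), which act at the plasma membrane and in endosomes, were also less than 2-fold apart. Arf1 and arf4a were called, in opposite directions.

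Arf4a was at 123 FPKM in the EGFP+ and 13.9 FPKM in the EGFP- library, an 8.89-fold ratio. Among all 9685 genes, 5.81% had a log2 ratio at least as high. Arf1, the main GTPase of COPI assembly, was at 58.6 against 220.01 FPKM, a 3.76-fold lower level, and arf1l (arf2b in current annotation) was at 56.7 against 112 FPKM, just short of 2-fold. Arf4a therefore exceeded arf1 by 2.10-fold in the EGFP+ library, whereas arf1 exceeded arf4a by 15.9-fold in the EGFP- one.

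The ARF genes together summed to 1261 against 1338 FPKM, so the family total was close while its makeup differed. Arf4a made up 9.76% of that sum in the EGFP+ and 1.04% in the EGFP- library, and arf1 made up 4.65% against 16.4%. ARF proteins are very alike in sequence, and reads shared among arf1, arf1l and arf2 could be assigned to any of them, so the values of these 3 genes are uncertain. Arf4b, the paralogue of arf4a, was listed at 0 in both libraries. Reads could be split within that pair too, so the arf4a value is also uncertain.

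The p24 proteins, encoded by tmed genes, are cargo receptors that cycle between ER and Golgi in both kinds of vesicle. Of 10 genes grouped here by the tmed symbol alone, 3 (30%) were higher, 6 lay less than 2-fold apart and 1 (10%), tmed8, was lower. Among all genes 22.9% were higher and 26.5% lower. The family sum was 358 against 362 FPKM. Tmed2, the most abundant, was at 145.5 FPKM in the EGFP+ and 120.5 FPKM in the EGFP- library, tmed7 was at 38.5 against 33.7 FPKM and tmed3 at 16.2 against 12.4 FPKM. The abundant tmed10 (45.2 against 77.7 FPKM) and tmed9 (52.1 against 97.5 FPKM) were at lower levels by less than 2-fold.

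The higher p24 genes were of low or moderate level. Tmed4 stood at 21.3 against 3.36 FPKM, a 6.33-fold ratio, tmed5 at 29.1 against 5.56 FPKM, a 5.23-fold ratio, and tmed1a at 7.14 against 3.00 FPKM. Tmed4 and tmed9 belong to the same p24 subfamily. Tmed9 exceeded tmed4 by 29.0-fold in the EGFP- and by 2.45-fold in the EGFP+ library. Tmed1b, the paralogue of tmed1a, was at 3.34 against 4.58 FPKM, and tmed8 was at 3.78 FPKM in the EGFP- library and listed at 0 in the EGFP+ one.

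TRAPP complexes tether vesicles and activate Rab GTPases, and their genes had the most higher members, 5 of 10 (50%), with 1 (10%) lower. Of these 5, trappc2l and trappc12 were under 1 FPKM in the EGFP- library and were counted only through the EGFP+ one. Of all genes 22.9% were higher and 26.5% lower, and of those at a geometric mean under 20 FPKM 29.5% and 35.8%. The calls of trappc1, trappc2 and trappc12 were lost with a pseudocount of 5 FPKM. The TRAPP median log2 ratio was 0.68, and 0.29 over the 9 genes above 0 in both libraries. Trappc6bl was at 156 FPKM in the EGFP+ and 14.8 FPKM in the EGFP- library, a 10.6-fold ratio. Of all genes 5.01% had a log2 ratio at least as high. Trappc2l was at 15.8 FPKM in the EGFP+ library and listed at 0 in the other. Trappc1 was at 24.4 against 11.1 FPKM and trappc2 at 8.16 against 2.43 FPKM.

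Level in the libraries were trappc3 at 19.7 against 20.4 FPKM, trappc4 at 11.3 against 9.83 FPKM and trappc5 at 14.5 against 14.3 FPKM. The genes of the larger assemblies differed among themselves, with trappc11 at 33.1 against 26.9 FPKM, trappc12 at 3.16 against 0.664 FPKM and trappc13 lower at 4.42 against 11.1 FPKM. No other TRAPP gene exceeded 33.1 FPKM in either library, and in the EGFP+ library trappc6bl made up 53.7% of the TRAPP sum. Its near relative trappc6b was listed at 0 in both libraries, and reads could be split between them, so its value is uncertain. Without it, the sum was 134 against 96.8 FPKM and the median log2 ratio of the other 9 genes was 0.29.

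The Sec22 genes differed in opposite directions. Sec22bb and sec22ba encode the SNARE protein of vesicles between ER and Golgi, and both were lower, at 13.4 against 38.3 FPKM and 1.29 against 5.49 FPKM. Sec22a, a relative in the ER membrane, was at 129 FPKM in the EGFP+ and 10.96 FPKM in the EGFP- library. Its 11.8-fold ratio was the largest of any member above 0 in both libraries, and 4.64% of all genes had a log2 ratio at least as high. Sec22a made up 89.8% of the Sec22 sum in the EGFP+ library and 20.02% in the EGFP- one.

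Sec14l1, a lipid-binding protein that the symbol rule takes although it belongs to no coat, was at 1.95 against 5.42 FPKM. The members nearest the threshold were tmed1a, ssr4 and trappc1 inside it, at 2.03-fold, 2.05-fold and 2.09-fold on the log2(FPKM + 1) scale, and cope and arf1l outside it, at 1.97-fold and 1.96-fold.

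**Figure D3:**
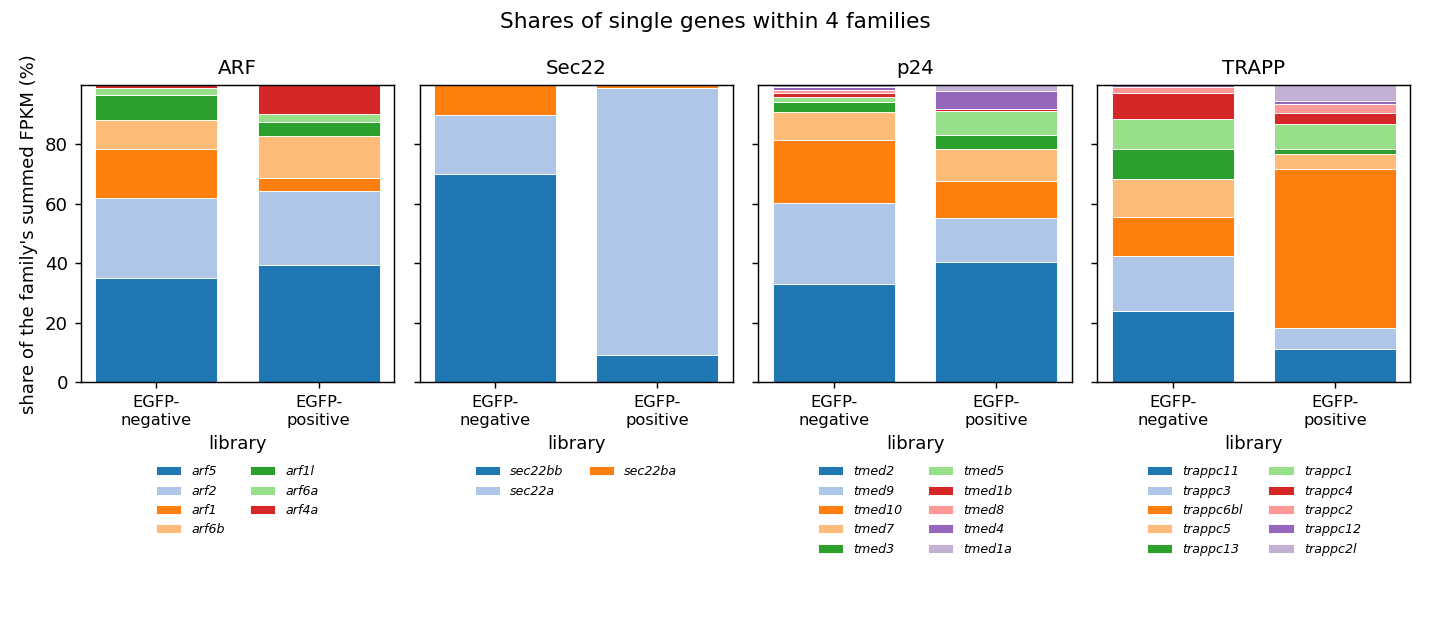
Share of each gene in the summed FPKM of its family (vertical, percent) in the EGFP- and EGFP+ libraries (horizontal), for the ARF, Sec22, p24 and TRAPP genes above 0. Sec22a takes 89.8% of the Sec22 bar and trappc6bl 53.7% of the TRAPP bar in the EGFP+ library, against 20.02% and 13.3% in the EGFP- one.

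Partners of these proteins outside the symbol rule were taken from 6 lists written from general knowledge, with earlier results of these data known. Of 86 measured partners, 21 (24.4%) were higher and 12 (14.0%) lower, beside 22.9% higher and 26.5% lower among all genes. Their median log2 ratio was 0.12. Of the lower partners 6 were listed at 0 in the EGFP+ library, and of the higher ones 5 at 0 in the EGFP- library, where an exact 0 can be a lost estimate. Among 10 genes of the ARF cycle and COPI recycling, 4 were higher and 1 lower. The higher genes were arcn1a, arfgap1, a GTPase-activating protein of ARF (190.7 against 72.6 FPKM), and the Golgi phosphoinositide-binding genes golph3 (22.6 against 10.1 FPKM) and golph3l (13.4 against 3.57 FPKM). Arfgap3 was at 5.53 FPKM in the EGFP- library and listed at 0 in the EGFP+ one.

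Genes of COPII assembly and of its cargo receptors had 3 higher (25%) and 1 lower (8.33%) of 12 measured, against 22.9% and 26.5% of all genes. The cargo export gene ctage5 was at 16.3 against 4.67 FPKM, the ubiquitin ligase adaptor klhl12, which acts on Sec31, at 9.36 against 1.503 FPKM, and the exit site gene tecpr2 at 6.39 against 0.637 FPKM. Pef1, a calcium-binding partner of that adaptor, was lower at 41.4 against 127 FPKM.

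Of genes that target chains to the translocon 66.7% lay less than 2-fold apart, and of those that process them beside it 64.3%. The share was 50.6% of all genes, and 68.7% of those at a geometric mean of 20 to under 100 FPKM. The signal recognition particle list had no higher and 2 lower (33.3%) of 6, srp9 (13.7 FPKM) and srp19 (3.73 FPKM), both listed at 0 in the EGFP+ library. Of 14 genes beside the translocon 3 (21.4%) were higher and 2 (14.3%) lower. Among all genes 22.9% were higher and 26.5% lower. Tram1, which sits beside the channel, was at 824 against 396 FPKM and tram2 at 36.4 against 13.5 FPKM, and the ER chaperone gene hspa5 was at 137.6 against 67.7 FPKM. The calls of tram1 and hspa5 lay just past 2-fold, at log2 ratios of 1.06 and 1.01. Tusc3, an oligosaccharyltransferase subunit, was at 153 FPKM in the EGFP- library and listed at 0 in the EGFP+ one, and the signal peptidase gene spcs3 was at 27.2 against 68.1 FPKM.

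Golgi tethers and early SNAREs had 8 higher (27.6%) and 4 lower (13.8%) of 29, against 22.9% and 26.5% of all genes. The highest log2 ratios were those of cog5 (10.2 FPKM), nsfa (3.59 FPKM) and use1 (3.07 FPKM), all listed at 0 in the EGFP- library, and of nsfb, an ATPase that recycles SNAREs, at 80.2 against 22.8 FPKM. The lowest were bet1, a SNARE at 13.2 FPKM in the EGFP- library and listed at 0 in the other, rint1 (5.11 against 31.8 FPKM), cog6 (4.25 against 14.5 FPKM) and scfd2 (4.56 against 12.5 FPKM). Zw10, which acts with rint1 in a tether at the ER and was named after its value was seen, was at 69.2 against 24.2 FPKM, the opposite direction. The list also held nrbf2, an autophagy gene, at 20.3 against 8.85 FPKM.

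The RNA of transcription factors known to raise secretory genes was level where it was abundant. Activity of the proteins was not measured. Xbp1 was at 209 against 208 FPKM, atf6 at 124 against 147 FPKM and creb3l2, a regulator of sec23a and sec24d in zebrafish cartilage, at 85.8 against 84.2 FPKM. They were on a list that also held ER stress genes that are not transcription factors. Of the 15 measured genes of that mixed list 3 (20%) were higher and 2 (13.3%) lower, against 22.9% and 26.5% of all genes. The higher ones were ern1 (11.02 FPKM) and ddit3 (10.8 FPKM), both listed at 0 in the EGFP- library, and herpud1 (8.02 against 1.81 FPKM). Creb3l1 (8.52 FPKM) was listed at 0 in the EGFP+ library and atf6b was lower at 5.72 against 15.8 FPKM.

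**Figure D4:**
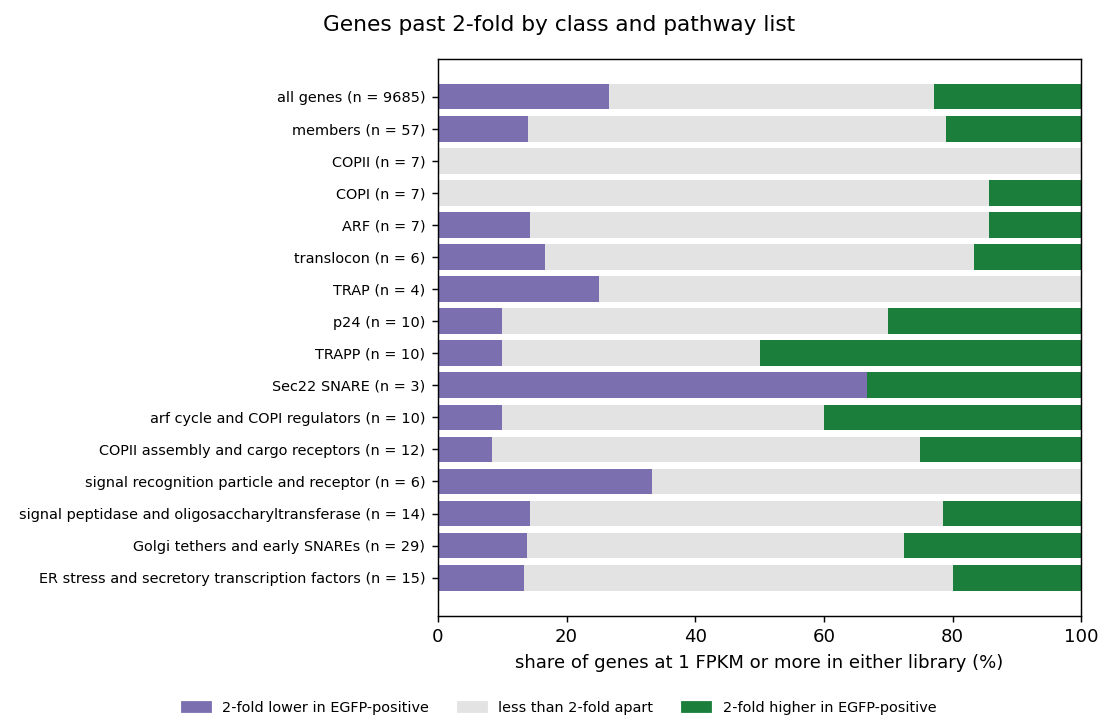
Share of genes (horizontal, percent) at least 2-fold lower, less than 2-fold apart and at least 2-fold higher in the EGFP+ library, for all genes, the members, each class of 3 or more measured genes and the 6 lists of partners (vertical). The members have 14.0% lower and 21.1% higher genes against 26.5% and 22.9% of all genes, and COPII has none past 2-fold.

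The label of the EGFP+ fraction was set beside marker lists, which were chosen with earlier results of these data known. The shares of all genes were 22.9% higher and 26.5% lower. Crestin itself was on the neural crest list but had no row under that symbol. Of 7 measured neural crest markers 6 (85.7%) were higher, none was at 0 in either library, and their summed level was 1065 against 269 FPKM. The hatching gland, a strongly secreting tissue, also had markers in the EGFP+ library. Of these 6 markers 3 (50%) were higher, 1 (16.7%) was lower and none was at 0, with a sum of 2004 against 761 FPKM. Kidney markers had 5 of 6 (83.3%) higher, none at 0 and a sum of 285 against 85.2 FPKM. The 5 notochord markers had 2 (40%) lower, of which shha was listed at 0 in the EGFP+ library, and summed to 177 against 206 FPKM. All 6 heart markers were lower, with nkx2.5 and tnnt2a at 0 in the EGFP+ library and a sum of 262 against 1808 FPKM. Of 7 skeletal muscle markers 6 (85.7%) were lower and 1 (14.3%), tnnt3b, was higher and listed at 0 in the EGFP- library. The 7 muscle markers summed to 59.5 against 238 FPKM. The 7 endothelium and blood markers had 4 (57.1%) lower, none at 0 and a sum of 1316 against 2976 FPKM. The 9 epidermis markers had 2 (22.2%) higher and 2 (22.2%) lower, near the shares of all genes. Those 9 summed to 916 against 958 FPKM, with foxi3a and foxi3b at 0 in the EGFP+ library. The part of these cell types in the values of the secretory genes was not tested.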

How the data were processed

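The authors deposited 1 table of FPKM values with 1 column for each of the 2 libraries. Tools credited to the submitters' processing notes are Cufflinks 2.2.1, TopHat2 2.0.11 and cutadapt, on the build Zv9. How they were run, with which annotation and scaling, is not stated in the labels or the file. Ribosomal RNA was depleted and a low-input kit was used, per the labels' protocols. FPKM carries no total count, so depth is unknown and no counting interval is given.

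Columns were matched to libraries by the sample descriptions, and every column matched. From the deposited FPKM, log2(FPKM + 1) ratios, counts past 2-fold and medians were computed for genes at 1 FPKM or more in either library, with Python 3.11.15, numpy 2.4.6 and pandas 2.3.3, and folds without a scale are plain quotients of FPKM. The arithmetic was checked on ratios planted without noise in genes at 20 FPKM or more in the EGFP- library. That check does not bear on zeros, on low genes or on the noise of the libraries. The planned comparison was descriptive because each group has 1 library. Of 62 member symbols, 59 were current and 3 older in the reference gene tables (RefSeq, GRCz12tu), and no joined row held a member. As that build differs from Zv9, no coordinates are printed.

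Members, classes and lists were chosen with earlier results of these data known. Every member past 2-fold or at 0 in one library is named, as are all COPI, COPII, translocon and TRAP genes, the 4 further genes of highest mean FPKM in other classes, up to 4 higher and 4 lower partners per list, and xbp1, atf6, creb3l2 and hspa5. Outside this rule, arf6a, tmed3, tmed1b, arcn1b, zw10 and nrbf2 were named after their values were seen. The alternatives were 2 pseudocounts, 2 minimums, leaving out genes at 0, 2 scalings, a 1.5-fold threshold and adding joined rows.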

Additional observations from a re-analysis of the deposited data

How the results depend on the processing

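No alternative turned the direction of a called member. Of the 20 called members, 9 (sec14l1, sec22ba, ssr4, tmed1a, tmed8, trappc1, trappc12, trappc13 and trappc2) fell under 2-fold with a pseudocount of 5 FPKM, which left 8 higher and 3 lower. Those were 14.0% and 5.26% of the 57 members, against 16.1% and 17.9% of all genes at that setting. The other 11 kept their call wherever they were counted, but copz2 and trappc2l, like tmed8, drop out when only genes above 0 in both libraries are kept, and a minimum of 20 FPKM left 7 higher and 4 lower. Without copz2, under either of those settings, the COPI count of higher genes was 0. At 1.5-fold, 19 members (33.3%) were higher and 14 (24.6%) lower, against 31.5% and 34.5% of all genes, with 3 higher in COPI and 3 higher and 1 lower in COPII. Scaling to equal sums without rn7sk added arf1l and tmed9 to the lower genes, took tmed1a and trappc1 from the higher ones, and turned the sign of the small COPI median, to -0.08. Adding joined rows changed nothing, because none holds a member. The calls of partners and markers were not checked under these alternatives. No paired analysis was possible because each group has 1 library, and none could be left out. The unknown depth limits how firmly genes of a few FPKM can be read.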
